A study of Mus musculus with 21 samples.

Results

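Short tRNA reads were taken as sequences of 24 nt or shorter that, read on the sense strand of their tRNA gene, lacked the CCA tail added to mature tRNAs. Of 32446 distinct sequences in the tRNA-seq table of mouse back skin, 1909 met this rule, which is 5.88% of them. Another 391 sequences of this length ended with the CCA tail and were left out. Of those kept, 40 also end with CCA but were placed on the genome without a tail. Of these, 31 end past the last nucleotide of the gene, where an added tail cannot be told apart. These 40 held between 0.156% and 0.526% of the short counts of a library. Among the kept sequences, 106 have 1 or 2 bases of the tail. Where a sequence was listed at several genes, its counts there were summed.

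The table held 4 libraries from wild-type (WT) and 4 from NSun2−/− back skin, described as independent biological replicates. All came from males on a C57Bl6/J CBA F1 background at postnatal day 25, when hair follicles are in anagen, the growth phase, and WT mice came from the breedings that gave the NSun2−/− mice. NSun2−/− mice carry a gene trap inside the NSun2 gene in every cell, and whole skin mixes many cell types. Fewer cells of a type and less RNA per cell cannot be told apart in such tissue. NSun2 mRNA is not measured by tRNA-seq, so the genotypes rest on the labels. Library totals lay between 17352126 and 24270307 counts in WT (median 20187202) and between 17556844 and 36749727 in NSun2−/− skin (median 21766272).

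NSun2 is an RNA methyltransferase that adds a methyl group to cytosines of many tRNAs, mostly beside the variable loop. Angiogenin, a secreted ribonuclease, cuts tRNAs in the anticodon loop and leaves 5′ and 3′ fragments longer than the reads described here. Shorter pieces are named after the arm in which they begin or end, and a read alone does not show how its ends were made.

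Most short reads came from tRNA Gly, and 1 sequence dominated every library. It spans nucleotides 1 to 18 of tRNA Gly, was listed at 9 genes of GlyGCC and GlyCCC, and held between 41.4% and 62.6% of the short counts of a library. The 10 most abundant sequences held between 61.6% and 72.4%. The gene is shown first, with nucleotides 1 to 18 in capitals, at chr1:172975116-172975186 on the plus strand of mm9 (NCBIM37), where the annotation has no overlapping gene.

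chr1.trna699-GlyGCC: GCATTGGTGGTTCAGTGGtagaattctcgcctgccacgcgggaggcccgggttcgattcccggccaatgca

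This Gly read had 139422, 275347, 266095 and 304471 counts in WT and 150823, 151868, 148568 and 150907 in NSun2−/− skin. WT replicate 1 lay below all NSun2−/− libraries and the other WT libraries lay above them, so the groups overlapped. Counts were scaled to a common library size with TMM factors and are given as CPM. WT libraries averaged 10510 ± 3033 CPM and NSun2−/− libraries 7457 ± 1190 CPM for this read (± SD, 4 libraries per genotype). The log2 fold change of −0.50 did not pass the test over all 12869 sequences that passed the filter on low counts (edgeR, SE 0.30, adjusted p = 0.529). With library totals in place of TMM it was −0.86 (edgeR adjusted p = 0.282).

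Together, short reads made up 1.64%, 2.66%, 1.86% and 2.17% of all tRNA counts in WT. The NSun2−/− libraries lay at 1.75%, 0.999%, 1.35% and 1.74%. The means were 2.08% ± 0.446 and 1.46% ± 0.359 (± SD, 4 libraries per genotype), and the groups overlapped. The difference of −0.62 percentage points did not pass the test (two-sided exact permutation p = 0.0857). Leaving out WT replicate 1 gave −0.77 points and passed the threshold (exact permutation p = 0.0286). Dividing the counts of each sequence by the factor they share gave −0.77 points. Taking reads up to 40 nt as denominator gave −0.81 points, and both also passed (exact permutation p = 0.0286 each). All of these are shares of tRNA reads, so they also move with every other read class.

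The genotypes differed at a base inside the Gly read. Among short Gly reads from nucleotide 1, a base other than that of the gene at position 9 was found in 1.95%, 1.78%, 1.75% and 2.04% of counts in WT. It was found in 13.3%, 13.2%, 9.67% and 14.1% in NSun2−/− skin. The groups did not overlap, and the means were 1.88% ± 0.142 and 12.6% ± 1.98 (± SD of 4 libraries, two-sided exact permutation p = 0.0286, the smallest this design allows). Position 9 was chosen after its values were seen, and over the 18 positions of the read the adjusted p was 0.129, which could fall under 0.05 only if most positions reached the smallest p. The groups also did not overlap at positions 11, 15 and 18, where the differences were −0.0547, −0.0457 and −0.0197 percentage points (exact permutation p = 0.0286 each). At the positions other than 9, the means differed by between −0.620, at position 5, and 0.0965 points.

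Positions are counted from 1 at the first nucleotide of the gene. The substitutions are printed as gene base, position and read base. The forms of the Gly read that differ at position 9 are given with the unchanged read, and capitals mark the bases that differ from the gene at which the read was placed.

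Gly 1 to 18: gcattggtggttcagtgg
G9C: gcattggtCgttcagtgg
G9A: gcattggtAgttcagtgg
T5G: gcatGggtggttcagtgg
T5G with G9C: gcatGggtCgttcagtgg
T5G with G9T: gcatGggtTgttcagtgg

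The G9C read had 1387, 2419, 2299 and 2755 counts in WT and 12140, 12582, 8792 and 14048 in NSun2−/− skin. The G9A read had 999, 2189, 1628 and 2512 counts in WT and 10264, 10178, 6659 and 10178 in NSun2−/− skin. Every NSun2−/− library was above every WT library for both reads. Log2 fold changes were 2.66 for G9C (edgeR, SE 0.35, adjusted p = 0.0160) and 2.58 for G9A (edgeR, SE 0.38, adjusted p = 0.0218). The unchanged read has 12 exact matches in mm9 and the T5G read has 5, whereas the G9C and G9A reads have 0, counted over the whole 18 nt.

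The T5G read was listed at 4 genes of GlyGCC. It had 3795, 12094, 10313 and 10043 counts in WT and 4279, 3784, 3049 and 4073 in NSun2−/− skin, with a log2 fold change of −1.03 that did not pass the test (edgeR, SE 0.39, adjusted p = 0.258). Forms of this read with another base at position 9 were called higher. The T5G with G9C read had 4, 19, 8 and 15 counts in WT and 83, 120, 90 and 90 in NSun2−/− skin, and its log2 fold change was 3.26 (edgeR, SE 0.63, adjusted p = 0.0381). For T5G with G9T, whose counts are multiples of 8, the log2 fold change was 3.32 (edgeR, SE 0.64, adjusted p = 0.0376). Neither passed with library totals (edgeR adjusted p = 0.0830 and 0.0694). Over the libraries left out, the edgeR adjusted p lay between 0.052 and 0.114 for T5G with G9C. It lay between 0.0363 and 0.121 for T5G with G9T. Both reads are low in WT and passed the filter on low counts through the NSun2−/− libraries. Their calls are therefore not separate evidence for position 9.

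The same base differed in longer Gly reads. Among Gly reads of 25 to 40 nt from nucleotide 1, 3.17% ± 0.434 differed at position 9 in WT and 11.4% ± 1.32 in NSun2−/− skin (± SD of 4 libraries, two-sided exact permutation p = 0.0286). Pooled over the other isotypes, short reads lay at 1.14% ± 0.217 in WT and 0.720% ± 0.0820 in NSun2−/− skin. The groups did not overlap (exact permutation p = 0.0286, 4 libraries per genotype). This pooled share also moves with the mix of isotypes, and the part of the mix in the difference was not tested. None of the single short isotypes given below had a lower mean in NSun2−/− skin. Short Ala and Val reads had 0% in every library, but few differing sequences of these reads are listed at any position. Short Ser reads, whose gene base is G, also had 0% in every library. Short Met reads lay at 31.2% ± 2.87 and 31.5% ± 6.43. Long Gln reads, whose gene base is also G, lay at 16.4% ± 0.231 and 16.5% ± 0.246, and long Arg reads at 29.7% ± 1.36 and 28.4% ± 1.00 (± SD, 4 libraries per genotype). Long Asn reads lay at 40.3% ± 3.93 in WT and 31.95% ± 4.07 in NSun2−/− skin, with overlap. Long Pro reads lay at 19.6% ± 0.412 and 21.0% ± 0.516 without overlap (exact permutation p = 0.0286, 4 libraries per genotype), a difference of 1.40 points. Long Asp reads, whose gene base is A, lay at 22.5% ± 6.91 and 28.8% ± 5.96, a difference of 6.32 points with overlap (exact permutation p = 0.2, 4 libraries per genotype). The origin of the differing bases was not tested.

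Reads of 18 nt, the shortest in the table, were the most abundant length, although the methods of the study name a longer minimum for the RNA selected and aligned. They held 61.3%, 71.1%, 70.5% and 74.1% of short counts in WT and 61.3%, 59.4%, 61.8% and 67.6% in NSun2−/− skin, and the groups overlapped. The mean shares were 69.2% ± 5.53 and 62.5% ± 3.53 at 18 nt, 5.55% ± 0.714 and 6.12% ± 1.25 at 19 nt, and 3.63% ± 0.478 and 4.07% ± 0.632 at 20 nt (± SD, 4 libraries per genotype). They were 3.71% ± 0.428 and 3.92% ± 0.477 at 21 nt, and 5.20% ± 0.880 and 6.75% ± 0.605 at 22 nt. At 24 nt they were 4.80% ± 1.12 and 6.59% ± 1.06. At 23 nt the libraries lay between 5.68% and 10.75% in WT and between 9.53% and 10.75% in NSun2−/− skin. Of the 7 lengths, 0 passed the exact permutation test, with or without adjustment, and the smallest adjusted p was 0.200. Because the table begins at 18 nt, shorter pieces were not seen.

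By deposited counts of single sequences, reads of tRNA Val and tRNA Ala from nucleotide 1 were the most abundant outside Gly, whereas summed by isoacceptor GlnCTG, at 614 CPM in WT, lay above ValCAC, at 492 CPM. The Val read from nucleotide 1 to 23 was listed at 5 genes of ValAAC and ValCAC and the Ala reads at 2 genes, 1 of AlaCGC and 1 of AlaTGC. They are shown as placed at chr1:173041574-173041596 and chr2:57034489-57034510, both on the plus strand of mm9. The Ala gene lies in an intron of the lincRNA 4930555B11Rik.

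Val 1 to 23: gtttccgtagtgtagtggttatc
Ala 1 to 22: ggggatgtagctcagtggtaga
Ala 1 to 18: ggggatgtagctcagtgg

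The Val read had 11955, 16300, 13881 and 8094 counts in WT and 11163, 10855, 11790 and 13637 in NSun2−/− skin. The Ala read of 22 nt had 7701, 10149, 11118 and 7140 counts in WT and 8874, 9180, 12138 and 10251 in NSun2−/− skin. The groups overlapped for both, and neither passed the test, with log2 fold changes of 0.14 for Val (edgeR, SE 0.31, adjusted p = 0.899) and 0.37 for Ala (edgeR, SE 0.28, adjusted p = 0.625). With library totals they were −0.25 and 0.0022, and the Val read was also slightly negative without WT replicate 4 or NSun2−/− replicate 4, at −0.03 and −0.06. The Ala reads of 18, 19 and 23 nt had log2 fold changes of 0.08, 0.67 and 0.29. None of them passed (edgeR adjusted p = 0.922, 0.352 and 0.706), and with library totals they lay at −0.33, 0.24 and −0.10. All counts of the Ala read of 22 nt are multiples of 51, and those of the Ala read of 18 nt are multiples of 158. Multiply matching reads had been distributed over genes by the authors, and of the 674 sequences with counts in all 8 libraries, 226 have counts that share a factor above 1. Over all 1909 sequences it is 1046, where those seen in 1 library have such a factor with any count above 1. The origin of these factors was not tested. The deposited counts are therefore not numbers of independent reads, and levels of different sequences are weighted differently. With the factor removed, the Ala read of 22 nt has between 140 and 238 units in a library and that of 18 nt between 41 and 68, so the rank of these reads holds for the deposited counts alone.

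Start positions were concentrated at nucleotide 1. This start held 66.3%, 76.7%, 75.3% and 75.6% of short counts in WT and 65.3%, 63.4%, 68.3% and 74.5% in NSun2−/− skin. Gly reads made up 84.5% ± 4.22 of them in WT and 80.1% ± 1.08 in NSun2−/− skin, followed by Ala and Val. Starts at nucleotides 10 to 25, in the D arm, held 16.8% ± 2.42 and 17.5% ± 2.29, and starts at 26 to 43, in the anticodon arm, 3.16% ± 0.261 and 3.31% ± 0.777 (± SD, 4 libraries per genotype). Starts from nucleotide 49, in the T arm and beyond, held 2.56% ± 1.56 and 3.52% ± 0.477, and starts at 44 to 48 held 0.0319% ± 0.0112 and 0.0327% ± 0.0105. WT replicate 1 had 4.89% at starts from 49. Without this library the groups did not overlap there and the difference was 1.74 points, against 0.966 with it (adjusted exact permutation p = 0.0914 and 0.457).

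In 3 of the 8 start classes the genotypes did not overlap. Starts at nucleotides 2 to 9, in the acceptor stem or between it and the D arm, held 3.38%, 2.51%, 2.43% and 2.66% of short counts in WT and 4.98%, 7.17%, 4.72% and 3.91% in NSun2−/− skin. Starts before nucleotide 1 held 0.212%, 0.146%, 0.176% and 0.140% in WT and 0.640%, 1.07%, 1.00% and 0.379% in NSun2−/− skin. Sequences that could not be placed on a gene held 1.03% ± 0.287 and 1.82% ± 0.278 (± SD, 4 libraries per genotype). All 3 gave p = 0.0286 in the exact two-sided permutation test with n = 4 each, and 0 of 8 classes passed after adjustment, where the smallest adjusted p was 0.0762. Most of the 8 classes would have to reach the smallest p for any to pass that adjustment. The differences moved with the processing. For unplaced sequences the difference was 0.795 percentage points, and 0.00598 with the common factor removed. For starts at 2 to 9 it was 2.45 points, and 0.280 with reads of 22 nt or shorter. For starts before nucleotide 1 it was 0.605 points, 0.394 with the common factor removed, 0.318 with reads of 22 nt or shorter and 0.00168 with exact matches alone, which leave out reads with an added base.

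The class before nucleotide 1 was tRNA His, which made up 99.6% ± 0.165 of it in WT and 96.9% ± 5.57 in NSun2−/− skin. Mature tRNA His carries an extra guanosine in front of its first encoded nucleotide, which is added after transcription. Position 0 is the base in front of nucleotide 1. Among short HisGTG reads that start at position 0 or 1, those from position 0 made up 78.5%, 69.5%, 80.6% and 73.3% in WT and 91.2%, 96.7%, 93.3% and 87.7% in NSun2−/− skin. The groups did not overlap (two-sided exact permutation p = 0.0286, n = 4 each), a comparison added after the values were seen. In reads of 25 to 40 nt the same share was 88.4% ± 1.10 and 89.3% ± 1.49 (± SD of 4 libraries, exact permutation p = 0.457).

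A pair of His reads from position 0 is shown with the base at position 0, which differs from the genome there, in capitals. The C0T read was listed at 5 genes of HisGTG and the C0G read at 4. They are shown as placed at chr2:122203150-122203171 and chr2:122201281-122201302, both on the minus strand of mm9. The HisGTG genes at these places have the same sequence, so the places do not tell the reads apart.

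C0T: Tgccgtgatcgtatagtggtta
C0G: Ggccgtgatcgtatagtggtta

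Of the short reads from position 0 or 1, 33.4% ± 4.53 had G at position 0 in WT and 37.96% ± 4.48 in NSun2−/− skin, and 35.4% ± 5.81 and 44.6% ± 5.78 had T (± SD, 4 libraries per genotype), with overlap for both.

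The C0T read had 89, 53, 71 and 98 counts in WT and 530, 530, 512 and 242 in NSun2−/− skin, a log2 fold change of 2.70 (edgeR, SE 0.36, adjusted p = 0.0160). The C0G read, named after its values were seen, had 64, 104, 72 and 104 counts in WT and 360, 400, 384 and 240 in NSun2−/− skin, all multiples of 8. Its log2 fold change was 2.19 (edgeR, SE 0.32, adjusted p = 0.0231), and it missed the threshold with the common factor removed (edgeR adjusted p = 0.0516) and with library totals (edgeR adjusted p = 0.0625). Each NSun2−/− library was above each WT library for both.

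Gly reads that start at nucleotides 7 to 20 held 7.54% ± 1.48 of short counts in WT and 8.39% ± 2.29 in NSun2−/− skin. Of these, 89.5% ± 2.92 in WT and 95.6% ± 0.537 in NSun2−/− skin ended at nucleotides 30 to 32, at the last base of the anticodon stem before the loop or just inside the loop (± SD of 4 libraries, exact permutation p = 0.0286, groups without overlap). Gly reads of 25 to 40 nt from nucleotide 1 ended there in 99.5% ± 0.0792 and 99.7% ± 0.0733. The end at nucleotide 30 varied between libraries in both kinds of read. In WT replicate 1 it held 40.0% of the inner short reads and 52.7% of the long reads, against 12.2% and 10.5% in WT replicate 2. The end positions were examined after the values were seen.

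The Gly read from nucleotide 8 to 30 is the most abundant of these and was placed at chr1:172975123-172975145.

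Gly 8 to 30: tggttcagtggtagaattctcgc

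It had 2330, 811, 1340 and 2043 counts in WT and 3785, 9030, 3114 and 1868 in NSun2−/− skin. In CPM the groups did not overlap, with 69.8 ± 29.3 in WT and 210 ± 136 in NSun2−/− skin (± SD, 4 libraries per genotype). Relative to library totals, NSun2−/− replicate 4 lay below WT replicate 1, so the separation holds with TMM scaling only. The log2 fold change of 1.59 did not pass the test (edgeR, SE 0.51, adjusted p = 0.176). It was 1.05 without NSun2−/− replicate 2, the highest library, and 1.06 with library totals.

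Over all short sequences that passed the filter, 1002 of 1909, 10 were higher and 3 were lower in NSun2−/− skin at an edgeR adjusted p under 0.05. These are 0.998% and 0.299% of them, against a background of 0.932% higher and 1.53% lower among all 12869 sequences tested. With the common factor removed, 7 were higher and 3 lower (0.946% and 0.405%, against 1.37% and 2.2% of all 8711 then tested by edgeR). With library totals 4 were higher and 4 lower (0.399% each, against 0.583% and 1.57%). Some calls rest on few units once the factor is removed, with 0 in each WT library against 1, 1, 1 and 1 for an ArgACG read and 1, 2, 1 and 2 for a GlyGCC read from nucleotide 7, and 3, 1, 1 and 3 against 0 in each NSun2−/− library for a CysGCA read. With the factor removed these 3 no longer passed the filter on low counts, and the CysGCA read is among those that end with CCA past the gene. Each of these 3 had counts in 1 genotype only and so passed the main filter through that genotype alone. Their calls are therefore not separate evidence of a difference. The calls also changed with the libraries used. Leaving out WT replicate 2, WT replicate 3, WT replicate 4 or NSun2−/− replicate 1 left 0 short sequences called by edgeR, with between 83 and 96 at an unadjusted p under 0.05. Leaving out NSun2−/− replicate 2 or 3 left 1 each in edgeR, and leaving out NSun2−/− replicate 4 left 3. With all 8 libraries DESeq2 called 21 higher and 13 lower, which is 1.1% and 0.681% of the 1909, against 0.965% and 1.66% of all 32446. The spread between libraries was large, with a common dispersion of 0.994 over all sequences, so the lack of a call does not show that a sequence did not differ. Over the libraries left out, the G9C read had log2 fold changes between 2.44 and 2.83 and edgeR adjusted p between 0.0204 and 0.0852, and the G9A read between 2.40 and 2.75 with adjusted p between 0.0245 and 0.0954.

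Of the 3 sequences called lower, the GlnTTG read from nucleotide 23 to 40 had the most counts. It covers the end of the D arm and most of the anticodon arm, and was listed at 5 genes of GlnTTG. It is shown as placed at chr11:95720518-95720535 on the minus strand of mm9, in a tRNA gene that overlaps an exon of Gm11527.

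Gln 23 to 40: cactctggactttgaatc

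Its counts were 507, 584, 568 and 730 in WT and 173, 129, 151 and 117 in NSun2−/− skin. Every NSun2−/− library was below every WT library, and the log2 fold change was −1.87 (edgeR, SE 0.29, adjusted p = 0.0243). A LysTTT read from the 3′ end was also called lower, with 63, 189, 63 and 126 counts in WT and 0 in each NSun2−/− library. These counts are multiples of 63, which leaves 1, 3, 1 and 2 after the factor is removed, and the read then no longer passed the filter on low counts. In the main fit it passed that filter through the WT libraries alone, so its call is not separate evidence of a difference. The LysTTT read also ends past the last nucleotide of the gene, where an added tail with a differing base cannot be told apart.

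A GluCTC and a CysGCA read were also called higher, and both were named after their values were seen. The GluCTC read from nucleotide 50 to 73 with A57T had 376, 488, 684 and 866 counts in WT and 2000, 1818, 2154 and 1748 in NSun2−/− skin, and averaged 25.8 ± 9.02 and 94.8 ± 9.89 CPM (± SD, 4 libraries per genotype). This read ends at the base after the last nucleotide of the gene, where the first base of a tail cannot be told apart. Its log2 fold change was 1.88 (edgeR, SE 0.32, adjusted p = 0.0260), and it missed the threshold with library totals (edgeR adjusted p = 0.0627). The CysGCA read from nucleotide 13 to 34 had 55, 88, 132 and 99 counts in WT and 275, 297, 528 and 231 in NSun2−/− skin, all multiples of 11. Its log2 fold change was 2.00 (edgeR, SE 0.41, adjusted p = 0.0439), and it missed the threshold with the common factor removed (edgeR adjusted p = 0.0867) and with library totals (edgeR adjusted p = 0.109). The groups did not overlap for either read.

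Isoacceptors were compared by adding short counts over genes. Of 59 isoacceptor names with short reads, 49 passed the filter and were fitted with all other read classes as 213 features. At an edgeR adjusted p under 0.05, 6 of 49 were higher and 1 was lower in NSun2−/− skin, which is 12.2% and 2.04%, against a background of 9.39% higher and 11.3% lower among all features. The median log2 fold change was 0.27 over the 49 short features and 0.01 over all 213. This direction rested on the scaling. With counts scaled to library totals, the medians were −0.17 and −0.44, and 0 isoacceptors were higher and 2 lower (edgeR, 7 in either direction at an unadjusted p under 0.05). These are 0% and 4.08%, against 2.35% and 14.6% of all features. DESeq2, run without the filter, called 11 of 59 higher and 1 lower, which is 18.6% and 1.69%, against 13% and 13.9% of all 238 features. The number of higher isoacceptors was 3 without WT replicate 1, and also 3 without WT replicate 2, and 2 were lower without NSun2−/− replicate 4.

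GlyTCC was the isoacceptor called lower. Its short reads lay at 31.4, 48.8, 34.0 and 41.8 CPM in WT and 14.8, 9.45, 20.8 and 16.9 CPM in NSun2−/− skin. The groups did not overlap, and the log2 fold change was −1.33 with TMM (edgeR, SE 0.28, adjusted p = 0.00841) and −1.79 with library totals (edgeR adjusted p = 0.0181). With the common factor of each sequence removed it was −0.87 and not past the threshold (edgeR adjusted p = 0.110). The other Gly isoacceptors, GlyGCC and GlyCCC, had log2 fold changes of −0.23 (edgeR, SE 0.25, adjusted p = 0.568) and −0.26 (edgeR, SE 0.23, adjusted p = 0.431). With library totals these were −0.67 and −0.70, and with sequences of 1 isoacceptor only −0.43 and −1.14, and none of these passed (edgeR). Over the libraries left out, GlyGCC lay between −0.38 and −0.06 and GlyCCC between −0.41 and −0.09.

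ArgCCT had the smallest adjusted p of the higher isoacceptors. Its 9 sequences lay at 15.0, 24.3, 23.8 and 25.3 CPM in WT and 63.1, 47.1, 46.4 and 62.2 CPM in NSun2−/− skin. All NSun2−/− libraries were above all WT libraries, with a log2 fold change of 1.31 (edgeR, SE 0.23, adjusted p = 0.00517). With library totals it was 0.88 and did not pass (edgeR adjusted p = 0.0890). HisGTG lay at 129, 127, 141 and 143 CPM in WT and 200, 282, 301 and 190 CPM in NSun2−/− skin, a log2 fold change of 0.85 (edgeR, SE 0.20, adjusted p = 0.0162). With library totals it was 0.37 (edgeR adjusted p = 0.280), and it missed the threshold without WT replicate 2 (edgeR adjusted p = 0.0512) or NSun2−/− replicate 3 (edgeR adjusted p = 0.0574).

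The other higher isoacceptors were SerGCT, LeuCAG, IleGAT and TrpCCA, the last named after its values were seen. Their log2 fold changes were 0.91, 0.97, 1.37 and 0.65 with TMM, and their groups did not overlap. With library totals they were 0.48, 0.47, 0.98 and 0.19, and none of the 4 passed (edgeR). SerGCT, LeuCAG and IleGAT each missed the threshold on leaving out at least 1 library. With the common factor removed these 3 had log2 fold changes of 0.76, 0.78 and 0.50 and did not pass (edgeR adjusted p = 0.0684, 0.0645 and 0.357). IleGAT had few reads, at 3.58 ± 0.712 CPM in WT and 9.30 ± 4.22 CPM in NSun2−/− skin (± SD, 4 libraries per genotype).

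Among the other isoacceptors of tRNAs treated as NSun2 targets, none passed the edgeR test. AspGTC lay at 25.8, 42.0, 37.3 and 47.5 CPM in WT and 24.9, 29.0, 25.3 and 12.9 CPM in NSun2−/− skin, a log2 fold change of −0.73 (edgeR, SE 0.29, adjusted p = 0.104) that passed with library totals at −1.20 (edgeR adjusted p = 0.0436) and with the common factor removed at −1.06 (edgeR adjusted p = 0.0430). Without NSun2−/− replicate 4, the lowest library, it was −0.38 (edgeR adjusted p = 0.279). GluCTC lay at 296 ± 20.8 and 385 ± 19.5 CPM (± SD, 4 libraries per genotype) without overlap, with a log2 fold change of 0.38 (edgeR, SE 0.17, adjusted p = 0.125) that was 0.21 with the common factor removed and −0.07 with library totals, and it passed with DESeq2 at 0.39 (adjusted p = 0.00968). GluTTC had one of 0.19. LysCTT and LysTTT had log2 fold changes of 0.27 and 0.42, and ValCAC, ValAAC and ValTAC of 0.17, 0.20 and 0.30. The direction of these 6 rested on the scaling, since with library totals they lay at −0.28 for GluTTC, −0.17 and −0.06 for LysCTT and LysTTT, and −0.29, −0.27 and −0.11 for ValCAC, ValAAC and ValTAC. ValCAC and ValAAC were also negative, at −0.02 and −1.24, with sequences of 1 isoacceptor only. CysGCA, treated in the study as not methylated by NSun2, had a log2 fold change of 0.68 (edgeR, SE 0.25, adjusted p = 0.0788). It was −0.03 with the common factor removed (edgeR adjusted p = 0.941) and 0.18 with library totals, and it passed with DESeq2 (adjusted p = 0.0425), without NSun2−/− replicate 1 (edgeR adjusted p = 0.0333) and without NSun2−/− replicate 4 (edgeR adjusted p = 0.0288).

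The isoacceptors differed in where their short reads lie. Of the short counts of AlaCGC, 98.5% started at nucleotide 1, as did 88.4% of GlyGCC and 80.9% of ValCAC. For GlnCTG and LysCTT, both among the 5 most abundant over all 8 libraries, 0% did, and for ProAGG 0.226% did. AlaCGC and AlaTGC lay at 635 ± 53.9 and 530 ± 33.7 CPM in WT and at 800.5 ± 71.3 and 648 ± 54.0 CPM in NSun2−/− skin, and share most of their reads. Neither passed the test (edgeR adjusted p = 0.200 and 0.247). Their log2 fold changes of 0.33 and 0.29 turned to −0.12 and −0.17 with library totals, and AlaTGC lay at −0.16 with the common factor removed and −0.33 with sequences of 1 isoacceptor only. Sequences listed at more than 1 isoacceptor held 80.1% of all short counts, so that isoacceptors are not separate measurements.

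Short reads were then set against the longer reads that share their start. The log2 ratio of short to 25 to 40 nt reads from nucleotide 1 was −6.08, −5.13, −5.88 and −5.62 in WT and −6.14, −7.15, −6.46 and −5.96 in NSun2−/− skin. The groups overlapped, and the difference of −0.75 did not pass the test (two-sided exact permutation p = 0.0571, n = 4 each). Without Gly reads, a comparison added after the values were seen, the ratio was −6.29 ± 0.322 and −7.14 ± 0.388 and the groups did not overlap (exact permutation p = 0.0286, n = 4 each).

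By isoacceptor, 9 of 27 ratios were lower and 0 higher in NSun2−/− skin at a limma adjusted p under 0.05, and 10 differed in either direction at an unadjusted p under 0.05. Here the isoacceptors are themselves all features tested, so the background is the same 33.3% lower and 0% higher. The median difference over the 27 was −0.57. It lay between −0.72, without NSun2−/− replicate 4, and −0.37, without NSun2−/− replicate 2. ValCAC had log2 ratios of −6.43, −6.23, −6.62 and −6.69 in WT and −7.57, −8.18, −7.75 and −8.31 in NSun2−/− skin, a difference of −1.46 (limma, SE 0.31, adjusted p = 0.00936). ProTGG differed by −1.52 (limma adjusted p = 0.00936), MetCAT by −1.69, HisGTG by −1.46 and GlyTCC by −1.43. ValAAC, ProAGG, ArgACG and GluCTC made up the rest, with differences between −1.32 and −1.17. Some of these ratios rest on a small part of the short reads, since reads from nucleotide 1 are 0.226% of the short counts of ProAGG, 0.728% of ProTGG, 2.62% of GluCTC, 4.95% of HisGTG and 18.2% of ArgACG. The HisGTG ratio leaves out the reads from position 0, and its sum over all starts was higher in NSun2−/− skin. Without WT replicate 2, 5 passed, and MetCAT, HisGTG, GlyTCC and GluCTC did not (limma adjusted p = 0.0508, 0.119, 0.147 and 0.0508). GlyTCC also missed the threshold without any one of 5 other libraries, and HisGTG without WT replicate 3 or NSun2−/− replicate 3. Without NSun2−/− replicate 2, the lowest library for GlyTCC, its difference was −0.87 (limma adjusted p = 0.0600). A lower ratio can come from fewer short reads or from more long reads, and ValCAC short reads alone did not pass the edgeR test.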

How the data were processed

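The authors depleted ribosomal RNA, selected small RNA by size, removed adapters and aligned reads to mm9 with Bowtie, allowing mismatches. They distributed multiply matching reads over genes, and realigned unaligned reads after trimming CCA ends. The deposited counts are whole numbers, 1 for each tRNA gene, distinct read and library, without scaling to library size, for reads of 18 to 95 nt. The Bowtie version is not given in the sources used here.

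Reads are listed in mixed orientation, so each of 53875 entries was placed in both orientations on 247 predicted tRNA genes read from mm9 (NCBIM37), with up to 2 mismatches for reads of up to 24 nt and up to 4 for longer ones. Unplaced sequences that end with CCA as listed counted as tailed. Of 1909 short sequences, 1570 were placed, 886 of them without a mismatch. Sequences listed on 1 chromosome are not printed here.

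Shares of single libraries were compared with exact permutation tests over 70 assignments, which cannot go below p = 0.0286. Because counts are not independent reads, no counting intervals are given. Isoacceptor by read class, and sequences of all lengths, were fitted with edgeR 4.0.16 (quasi-likelihood, TMM, filterByExpr, Benjamini-Hochberg over all features). Ratios were fitted with limma 3.58.1 on log2 values after adding 0.5, for isoacceptors with a mean of at least 10 counts in both classes. R 4.3.3, DESeq2 1.42.0, Python 3.11.15, pandas 2.3.3, numpy 2.4.6 and scipy 1.17.1 were used. The fits were tested on simulated data, in which the sequence fit missed many changed sequences after adjustment, large changes among them.

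Isoacceptors named were the 10 most abundant, those of Asp, Glu, Gly, His, Lys, Val and Cys, and up to 5 per direction past the threshold without overlap of the libraries. Sequences named were the 10 most abundant and up to 5 per direction by the same rule with a mean of at least 1 CPM. Members and lists were chosen with earlier results of these data known. Alternatives covered the length limit, CCA rule, common factor, scaling, test, filter, mismatches, replicate block and each library left out. Bisulphite and Pol III files hold no short tRNA reads and were not used here.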

Additional observations from a re-analysis of the deposited data

Results flagged for a closer look

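Among 188 groups of 4 libraries examined, 23 held a library far from the other 3 of its genotype, and chance alone would give this in about 1 of 20 groups. Many of these values share reads, so they are not separate signs. WT replicate 1 accounted for 10. It held 4.35% of short counts at 21 nt and 6.46% at 24 nt, 66.3% at start 1, 3.55% at starts 26 to 43, 4.89% at starts from 49, and 61.6% in the 10 most abundant sequences. In the same library, short reads of GluCTC lay at 265 CPM, of LysTTT at 289 CPM and of ArgCCT at 15.0 CPM, and the Gly read from nucleotide 1 to 18 at 6021 CPM.

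NSun2−/− replicate 4 accounted for 5, with short reads of GlyGCC at 12780 CPM and of GlyCCC at 404 CPM, the Val read from nucleotide 1 to 23 at 833 CPM, a called ArgACG read at 1.47 CPM, and 41.1% of short Met reads with another base at position 9. NSun2−/− replicate 2 accounted for 3. Reads of 25 to 40 nt from nucleotide 1 made up 90.1% of its counts, HisGTG 88.5% of its short reads from before nucleotide 1, and its log2 ratio of short to longer GluCTC reads was −13.25. In WT replicate 2 this ratio was −8.31 for MetCAT and −7.02 for HisGTG, both among the ratios called lower. HisGTG made up 99.4% of the class before nucleotide 1 in WT replicate 3. A CysGCA read from nucleotide 13 to 34 lay at 23.5 CPM in NSun2−/− replicate 3, and 0.00709% of short Gly reads differed at position 15 in NSun2−/− replicate 1. What sets these libraries apart was not tested.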

How the results depend on the processing

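The difference in the short share was −0.77 points with the common factor removed and −0.81 points with reads up to 40 nt as denominator, both past the threshold (exact permutation p = 0.0286), and between −0.77 and −0.43 points over the libraries left out. With library totals, 0 isoacceptors were higher and 2 lower, and 4 short sequences were higher and 4 lower. DESeq2 called 11 isoacceptors higher, and 21 short sequences higher and 13 lower. With the common factor removed 3 isoacceptors were higher. Without a filter on low counts, 1 short sequence was higher and 0 lower (edgeR), with 184 at an unadjusted p under 0.05. Leaving out 1 library in turn gave between 3 and 7 isoacceptors higher and 1 to 2 lower, 0 to 6 short sequences higher and 0 to 4 lower, and 5 to 9 ratios lower. Why these counts moved was not tested.

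With a replicate block, 1 isoacceptor was higher, 0 short sequences were higher and 0 lower (edgeR, 66 at an unadjusted p under 0.05), 5 ratios were lower, and the difference at position 9 was 10.7 points (exact sign permutation p = 0.125, the smallest that 4 pairs allow). Libraries of the same number showed no shared deviation, with correlations of −0.00694, −0.297, 0.0718 and −0.129. Those of different numbers lay between −0.109 and 0.218. So few values cannot show whether the numbers pair the libraries. The difference at position 9 lay between 10.2 and 11.7 points over the libraries left out. The adjusted exact test of lengths and start classes can hardly be passed by this design, so that it says nothing about their stability. Depth does not limit the dominant Gly read, but sequences with few units before weighting cannot be judged.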
